A study of Mus musculus with 2 samples.

Results

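The genes described here make the MHC class I antigen presentation pathway, the route by which almost every nucleated cell shows peptides from its own cytosol to CD8+ T cells. They are 10 listed genes: the class I heavy chains H2-K1, H2-D1 and H2-T23, the light chain B2m, the peptide transporter subunits Tap1 and Tap2, the peptide editors Tapbp (tapasin) and Tapbpl (a tapasin relative), the peptide-trimming aminopeptidase Erap1, and Nlrc5, the transactivator of class I genes. Of the 10, 9 had a probeset paired with that gene alone, out of 22180 named genes on the array, and all 9 were above background on both arrays. H2-D1 shared its probeset with another class I gene, so no value is given for it.

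The values come from 2 arrays of myofibroblasts, the contractile stromal cells under the gut epithelium, taken from the small intestine of wild-type mice of the BALB/c strain. Stimulated cells received homogenised intestinal eosinophils at 5 mg/ml and non-stimulated cells received none, both for 1 day. Each array holds pooled RNA of 3 cultures, so no test between the conditions is possible, and every difference describes these 2 pools without an error. The comparison asks which myofibroblast transcripts differ after contact with eosinophil material. The labels do not state the age of the animals, the way the cells were isolated or the number of passages.

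A class I molecule is a heavy chain, its light chain beta-2-microglobulin and a short peptide. Proteasomes cut proteins in the cytosol, the TAP transporter carries the fragments into the endoplasmic reticulum, aminopeptidases trim them, and tapasin with the chaperones calreticulin and ERp57 helps the heavy chain to bind one. In stromal cells, interferon-gamma and NF-kB signals are textbook inducers of the pathway, acting through motifs that lie shortly before the start of the class I genes. These are a kappaB site, an interferon response motif, and a module with an X2 box and a Y box, at which NLRC5 acts together with DNA-binding proteins.

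The upstream sequences of 5 of the genes are shown because they hold these motifs in different numbers while the measured differences of the 4 with values were all small. Of the 10 genes, 7 had an upstream window in the RefSeq table of GRCm38.p6. The 250 bases before the transcript start are given, 5′ to 3′ on the strand of the gene, with every match to a searched motif string in capitals. H2-K1 has 2 annotated starts, of which the first listed is shown. The reference strain is not BALB/c, and the strains carry different alleles of the class I genes, so the letters may differ from those of the cells studied.
H2-K1 (chr17:34000348-34000597, - strand): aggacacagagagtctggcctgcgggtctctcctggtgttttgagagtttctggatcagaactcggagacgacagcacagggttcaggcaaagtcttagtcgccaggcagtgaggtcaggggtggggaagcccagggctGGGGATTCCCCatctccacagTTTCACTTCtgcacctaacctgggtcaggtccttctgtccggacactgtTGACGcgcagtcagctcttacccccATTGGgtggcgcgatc
H2-D1 (chr17:35262844-35263093, + strand): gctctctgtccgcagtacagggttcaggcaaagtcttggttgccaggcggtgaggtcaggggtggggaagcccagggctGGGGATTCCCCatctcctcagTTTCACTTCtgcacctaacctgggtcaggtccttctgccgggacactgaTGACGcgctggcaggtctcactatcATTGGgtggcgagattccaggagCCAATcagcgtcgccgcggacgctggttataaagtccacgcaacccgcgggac
B2m (chr2:122147437-122147686, + strand): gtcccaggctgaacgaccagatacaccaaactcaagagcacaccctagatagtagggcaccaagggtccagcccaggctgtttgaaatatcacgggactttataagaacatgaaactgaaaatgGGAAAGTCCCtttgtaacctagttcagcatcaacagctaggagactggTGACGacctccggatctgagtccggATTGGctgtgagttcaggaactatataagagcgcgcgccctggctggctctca
Tap1 (chr17:34187306-34187555, + strand): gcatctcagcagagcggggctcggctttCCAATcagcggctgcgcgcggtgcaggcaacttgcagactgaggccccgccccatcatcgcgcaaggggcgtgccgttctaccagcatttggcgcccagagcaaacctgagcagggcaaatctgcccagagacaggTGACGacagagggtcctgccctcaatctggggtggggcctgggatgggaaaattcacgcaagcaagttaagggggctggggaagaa
Erap1 (chr13:74639603-74639852, + strand): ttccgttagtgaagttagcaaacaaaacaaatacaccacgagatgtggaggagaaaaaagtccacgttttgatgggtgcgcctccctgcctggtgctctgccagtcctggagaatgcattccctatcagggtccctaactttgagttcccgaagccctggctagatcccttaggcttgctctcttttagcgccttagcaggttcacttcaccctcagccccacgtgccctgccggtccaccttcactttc

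The capitals mark matches, on either strand, to the kappaB consensus, to GAANNGAAA (interferon response motif), to TGACG (X2 box core), to CCAAT (Y box) and to TTCNNNGAA (gamma-activated site). Overlapping matches to the same motif were merged. The H2-K1 and H2-D1 windows each held the kappaB, interferon, X2 and Y motifs in the same order, and the longest run of letters that they shared was 47 bases, from -141 to -95 in H2-K1 and from -201 to -155 in H2-D1. Each kappaB match of this pair lay within that run. B2m held the kappaB, X2 and Y motifs in that order, with X2 at -78 to -74 and Y at -53 to -49. Its window also has the longer interferon form, as gaaactgaaa in lower case, shortly before the kappaB match. Tap1 held an X2 core at -86 to -82 and a Y box far upstream of it, at -222 to -218. Its 2 matches thus stood in the reverse order and did not lie side by side as in B2m. No motif was found in the Erap1 window. H2-T23 and Tapbp, not printed, held only the Y box among the searched strings. The H2-T23 window has the longer interferon form on the other strand, as tttctctttc. By the searched strings, 3 of the 7 genes had the kappaB consensus, 2 GAANNGAAA and 4 the X2 core. The Y box was in 6 and the gamma-activated site in 0. Among 32851 windows of the same length in the table, 3.90% held the kappaB consensus, 6.31% the interferon motif, 17.8% the X2 core, 33.8% the Y box and 7.02% the gamma-activated site. A match is a description of letters and does not show that a factor binds.

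**Figure D1:**
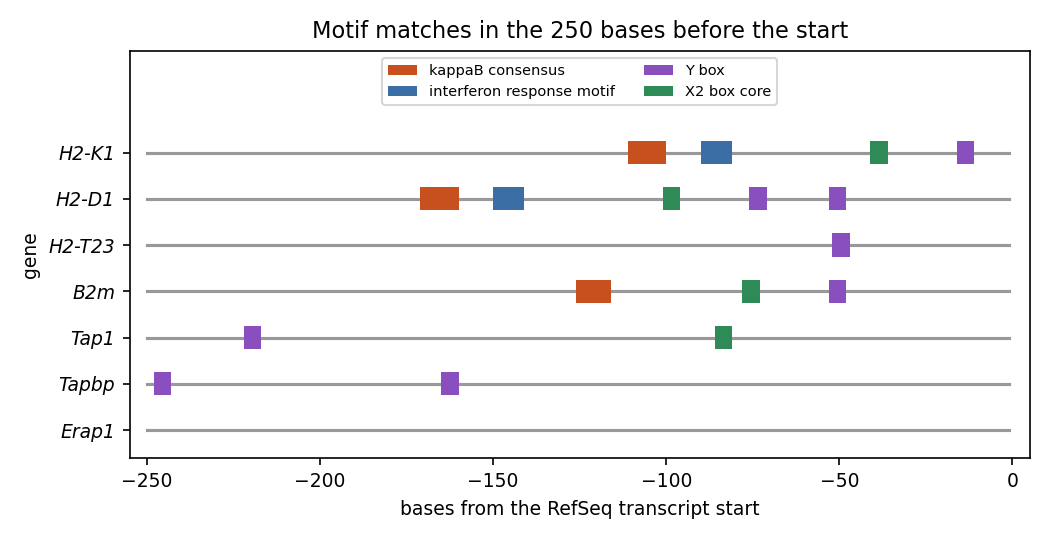
Positions of matches to the searched motif strings (coloured blocks) in the 250 bases before the RefSeq transcript start of 7 genes, in bases from the start. H2-K1 and H2-D1 share the order of kappaB, interferon, X2 and Y motifs, and Erap1 has no block.

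The class I genes differed between the arrays by about as little as a typical gene. Of the 9, 6 were higher and 3 lower on the stimulated array, and the log2 differences (stimulated minus non-stimulated) ran from -0.13 to 0.18, with a median of 0.06. No gene was 1.2-fold higher or lower, where 6.11% and 6.91% of all 14065 genes above background were, and the largest difference was 1.14-fold. Over all genes the median was 0.00 and 50.2% were higher. Of the 9, 5 differed by at most 0.1 in size, as did 50.3% of all genes, so the class I genes were about as flat as the array as a whole. None of the 9 passed 1.5-fold (0.796% of all genes did so upwards and 0.64% downwards) or 2-fold (0.192% and 0.0427%). When all genes were split by mean value into 4 equal sets, each of the 9 lay inside the central 95% of the differences of its set. The number of arrays limits the precision, and differences of this size cannot be told from the spread between cultures, which pooling hides.

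**Figure D2:**
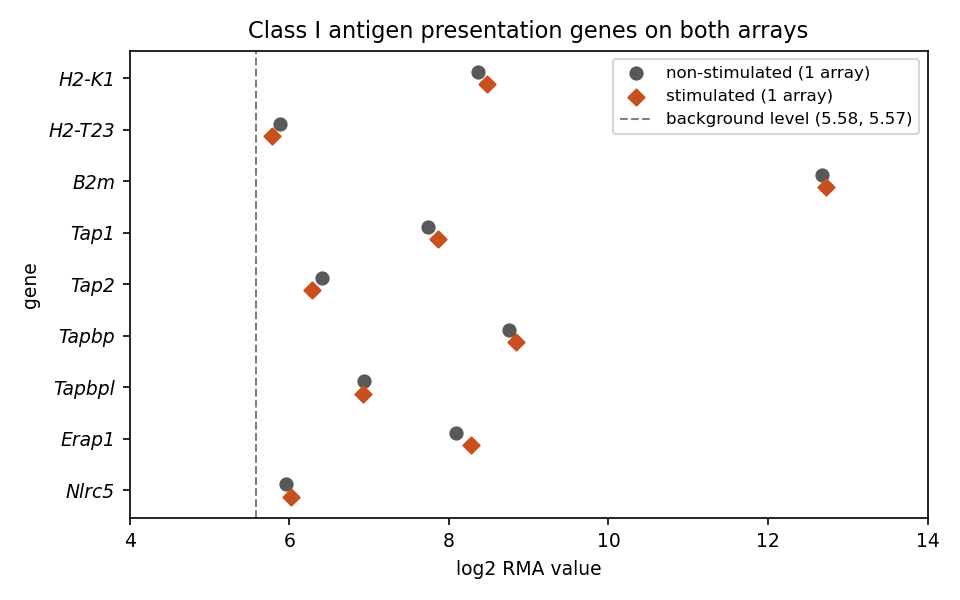
Log2 RMA value of each gene on the non-stimulated array (circles) and the stimulated array (diamonds), 1 array each, with the background level as a dashed line. The symbols of each gene lie close together, and H2-T23 and Nlrc5 lie nearest to the background level.

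Among the heavy chains, H2-K1, a classical class I gene that presents peptides to CD8+ T cells, read 8.36 on the non-stimulated and 8.48 on the stimulated array. The stimulated array was higher by 0.12 on the log2 scale, which is 1.09-fold, and 20.5% of all genes had a higher difference. H2-T23 encodes Qa-1, a non-classical class I molecule that holds peptides from other class I leader sequences and is read by receptors of natural killer cells. It read 5.88 and 5.78, a difference of -0.10, and stood only 0.30 and 0.21 above the background level of its array. Both differed by under 1.2-fold, H2-K1 upwards and the dim H2-T23 downwards. Of 6 probesets that several class I heavy chain genes share, 4 were above background on at least 1 array, and all 4 were higher on the stimulated array. Those 4 differed by 0.18 to 0.55, up to 0.24 for the 2 above background on both arrays. The 1 past 1.2-fold was under background without homogenate, and none passed once low values were set to the background level. Probes for class I heavy chains can share target sequence, since these genes are near-identical over long stretches, so the values of single heavy chains are uncertain.

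B2m, the light chain that every class I heavy chain needs for export to the surface, read 12.67 and 12.73. The difference of 0.06 is 1.04-fold, and 35.4% of all genes had a higher one. It lay in the brightest set of genes, whose central 95% ran from -0.25 to 0.29.

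The subunits of the peptide transporter differed in opposite directions. Tap1 read 7.74 and 7.87, a difference of 0.13, and Tap2 read 6.41 and 6.28, a difference of -0.13. Their proteins form a heterodimer and their genes are neighbours in the MHC with the immunoproteasome gene Psmb8 between them. The 2 differences lie 0.26 apart. Each was inside the central 95% of its set, which ran from -0.29 to 0.32 for the set of Tap1 and from -0.39 to 0.36 for that of Tap2.

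Of the editors, Tapbp read 8.75 and 8.84, a difference of 0.09. A second probeset of Tapbp read 6.85 and 6.65, a difference of -0.20, so that the mean of both was -0.06 and the direction for tapasin depends on the probeset. Tapbpl, whose protein edits peptides outside the TAP complex, read 6.94 and 6.93, a difference of -0.01.

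Erap1, which trims the amino end of peptides to the length that class I grooves hold, had the largest difference. It read 8.09 on the non-stimulated and 8.28 on the stimulated array, higher by 0.18 on the log2 scale. This was the only one of the 9 at least 1.1-fold higher, where 17.7% of all genes were, and none was at least 1.1-fold lower, where 18.6% were. In all, 11.5% of genes had a higher difference than Erap1.

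Nlrc5 read 5.96 and 6.02, a difference of 0.06, and stood 0.38 and 0.46 above the background level. With H2-T23 it lay in the dimmest set of genes, where the central 95% of the differences was widest among the 4 sets, from -0.51 to 0.48.

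**Figure D3:**
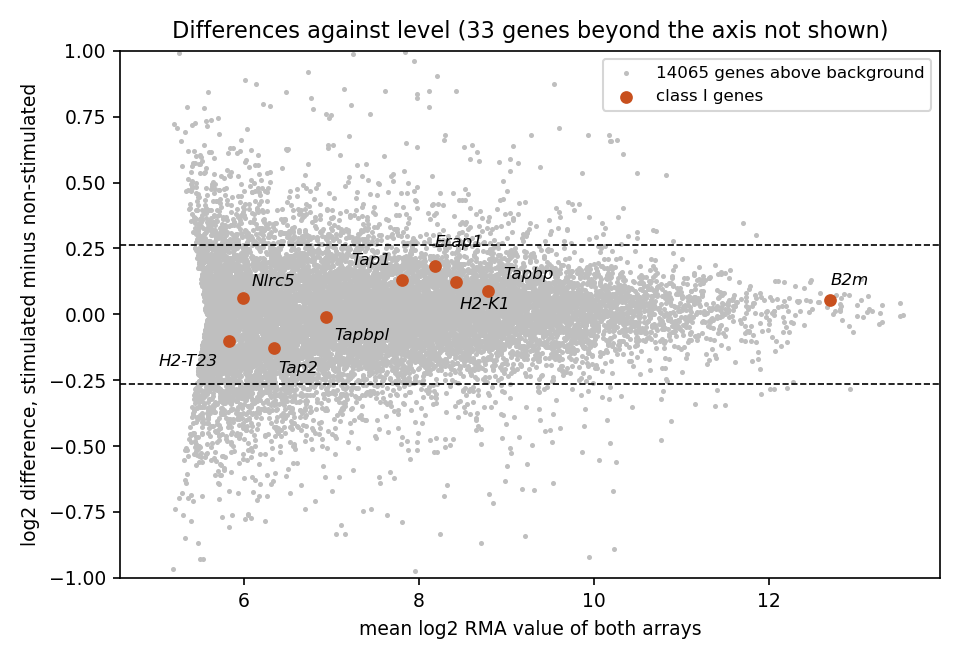
Log2 difference (stimulated minus non-stimulated) against the mean log2 RMA value of both arrays for 14065 genes above background (grey) and the 9 class I genes (orange), with dashed lines at 1.2-fold. All 9 lie between the lines, and 33 genes beyond the axis are not drawn.

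The genes that supply peptides stayed under 1.2-fold as well. Of 17 peptide-generating proteases and proteasome subunits above background, the stimulated array was higher for 13 and lower for 4. Over all genes 50.2% were higher. The median of the list was 0.05, and none passed 1.2-fold. The immunoproteasome subunit genes Psmb8 and Psmb10, which interferon-gamma is known to induce, read 6.79 and 6.87, and 7.96 and 8.02. Psmb9, the third of these subunits and the divergent neighbour of Tap1, was under background on both arrays, at 5.29 and 5.35. The genes of the interferon-inducible proteasome activator, Psme1 and Psme2, differed by -0.03 and 0.01. The furthest of the list were the proteasome activator Psme4 (0.19), the puromycin-sensitive aminopeptidase Npepps (0.17), the activator Psme3 (0.15) and the insulin-degrading enzyme Ide (0.13).

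Chaperones of class I folding differed by little. Of 15, all above background on both arrays, 10 were higher and 4 lower, beside 50.2% of all genes higher. They lay between -0.09 and 0.11, with a median of 0.02. Calr (calreticulin) read 11.98 and 11.97, Canx (calnexin) 11.97 and 12.04, and Pdia3 (ERp57, the partner of tapasin) 11.73 and 11.83. Prkcsh, a subunit of the glucosidase that trims sugars of new glycoproteins, was the lowest at -0.09, and P4hb, a disulfide isomerase, was at 0.08.

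Of the other class I and class I-like genes, 12 of 21 were above background, with a median of 0.10. The stimulated array was higher for 9 and lower for 3, where 50.2% of all genes were higher. The only one past 1.2-fold was H2-Q10, a class I gene known for a secreted product of the liver, which read 9.49 and 9.92, higher by 0.43 or 1.34-fold. Its second probeset, at 5.53 and 5.36, differed by -0.17 and was under background throughout, and with the mean of both no gene of the list passed 1.2-fold. Heavy chain probesets can read related genes, so this value may not belong to H2-Q10 alone. The next were Procr (the endothelial protein C receptor, a class I-like fold without a peptide) at 0.21, H2-M3 (which presents formylated peptides) at -0.21 and Cd1d1 (which presents lipids to natural killer T cells) at 0.15.

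Transcription factors and signal proteins that act on class I genes were mostly higher by little. Of 25 above background, 19 were higher and 6 lower, where 50.2% of all genes were higher, and the median was 0.06. Of the 25, 2 passed 1.2-fold upwards, a share near the 6.11% of all genes, and none downwards. Relb, a subunit of NF-kB, read 7.66 and 7.97, which is 1.24-fold higher. Irf8, an interferon regulatory factor, read 5.76 and 6.06, also 1.24-fold, but passed the fold only with the brighter of its 2 probesets. Relb and Irf8 each lay inside the central 95% of their sets, -0.29 to 0.32 and -0.51 to 0.48. Tyk2, a kinase of interferon receptors, was at -0.25, and Prdm1, a transcriptional repressor, at 0.23. Irf1, the factor that carries the interferon-gamma signal to class I promoters, read 7.01 and 7.06, a difference of 0.05.

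Interferon-gamma-inducible genes outside the class I pathway held single genes with larger differences. Of the 10 above background, 6 were higher and 4 lower, the median was 0.09, and 3 passed 1.2-fold, each towards higher values, beside 6.11% of all genes higher and 6.91% lower by as much. Without the background filter the median turned to -0.04, and 4 of the 16 genes on the array passed upwards and 3 downwards. Gbp3 and Gbp7, guanylate-binding proteins of cell-autonomous defence, read 5.86 and 6.33, and 7.62 and 8.03, which is 1.38-fold and 1.33-fold higher. The dim Gbp3 lay inside the central 95% of its set (-0.51 to 0.48), and Gbp7 outside that of its own (-0.29 to 0.32). Of their relatives, Gbp9 differed by -0.10, and Gbp4, Gbp5 and Gbp6 were under background on both arrays. Cxcl10, a chemokine for activated T cells, was under background without homogenate at 5.53 and read 6.16 with it, at least 1.49-fold higher against the background level. Parp14, an interferon-inducible ADP-ribosyltransferase, followed at 0.19.

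The MHC class II list, which belongs to professional antigen-presenting cells, was split. Of 13 genes on the array 7 were above background, 4 higher and 3 lower, and the median was 0.02. Past 1.2-fold, 1 was higher and 2 lower, beside 6.11% and 6.91% of all genes. Ciita, the class II counterpart of Nlrc5, read 6.12 and 6.47, which is 1.27-fold higher. H2-Eb1, a class II beta chain, read 6.26 and 5.92 (1.27-fold lower) and H2-DMa, a subunit of the class II peptide editor, 6.61 and 6.33 (1.22-fold lower). Each of these genes lay inside the central 95% of its set. That ran from -0.51 to 0.48 for Ciita and H2-Eb1 and from -0.39 to 0.36 for H2-DMa. H2-Ob, a subunit of the inhibitor of that editor, was at 0.22. With a background at the 99th percentile no class II gene was left past 1.2-fold in either direction.

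Ligands that tune T cells and natural killer cells completed the lists. Of 10 checkpoint and costimulatory ligands above background, 6 were higher and 4 lower, and the median was 0.08. At 1.2-fold 1 of the 10 passed upwards and 1 downwards, beside 6.11% and 6.91% of all genes. Lgals9 (galectin-9) read 10.08 and 9.72, which is 1.28-fold lower, and was the only one past 1.2-fold in that direction. Vtcn1, an inhibitory ligand of the B7 family, was under background without homogenate, which leaves at least 1.11-fold higher. Cd40, a costimulatory receptor, and the adhesion ligand Nectin2 differed by 0.23 and 0.19. Cd274 (PD-L1), another interferon-inducible gene, read 5.61 and 5.55, around the background level on both arrays. Of 9 listed ligands of the activating receptor NKG2D, only 3 had a probeset of their own, and 2 were above background. Those 2, Ulbp1 and H60b, were lower, with differences of -0.19 and -0.13, where 50.2% of all genes were higher. H60b stood only 0.13 and 0.02 above the background level of its array.

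**Figure D4:**
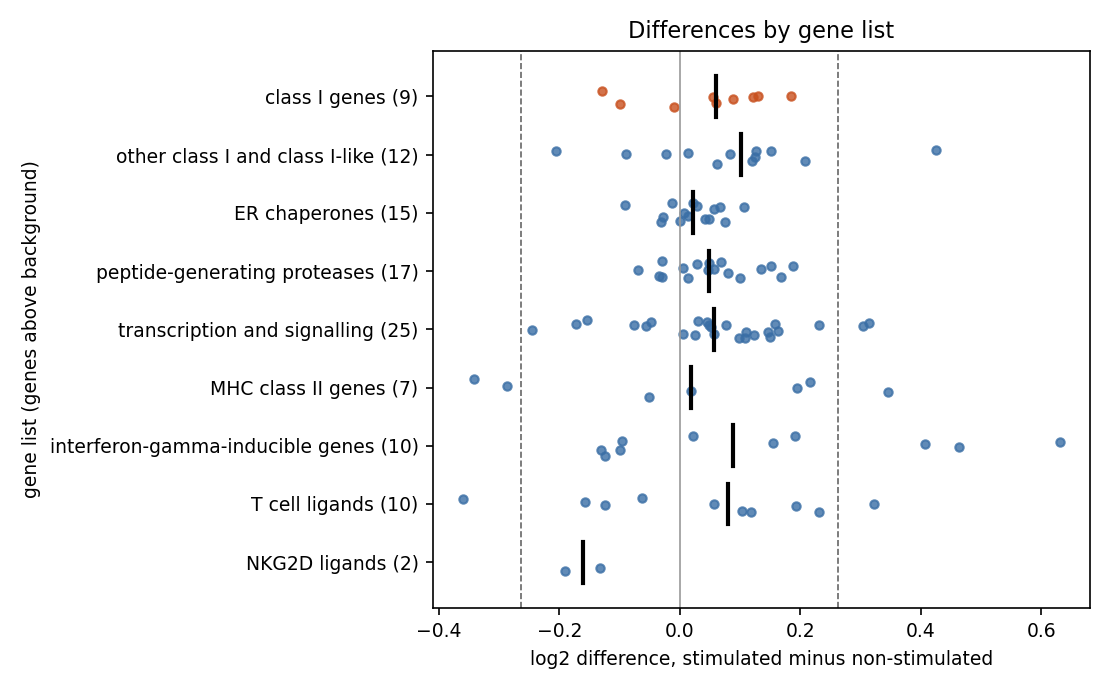
Log2 difference (stimulated minus non-stimulated) of each gene above background, by gene list, with the number of genes in brackets, medians as black bars and dashed lines at 1.2-fold. The class I genes (orange), the ER chaperones, the proteases and the NKG2D ligands stay between the lines, and the widest spread is in the interferon-gamma-inducible list.

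The arrays carried fibroblast transcripts, with all 12 fibroblast markers above background and Fn1 (fibronectin) at 13.28 and 13.31, whereas 1 label field names eosinophils as the source. Class I genes are also expressed by leukocytes. Of eosinophil markers 2 of 9 were above background on at least 1 array, none above 5.91. For pan-leukocyte markers the count was 5 of 10, and the other 5 were under background on both arrays. Cd53 stood apart at 9.73 and 9.56, and the next brightest, Cd37, read 6.21 and 6.1. The count was 6 of 15 for macrophage and dendritic cell markers, led by Cx3cr1 at 6.57 and 6.81. It was 2 of 9 for lymphocyte, 4 of 10 for endothelial and 4 of 10 for epithelial markers. The part of other cells in the class I values was not tested, and fewer cells of a type and less RNA per cell cannot be told apart in pooled RNA.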

How the data were processed

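RNA of 2 pools, prepared with Trizol and a column kit, was amplified, labelled with biotin and hybridised to a whole-transcript mouse array, per the labels' protocols. The values are log2 values deposited by the authors for each probeset. They were made with Affymetrix Expression Console and RMA, per the submitters' processing notes, with the versions and genome build not given in the sources used here. Because RMA equalises the distributions of the arrays (their sorted values differed by at most 0.0757), a difference is relative to the rest of the array.

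The platform annotation paired 23521 of 41345 probesets with 1 gene, 1814 with more than 1, and left 16010 unnamed. Current symbols came from the RefSeq table of GRCm38.p6, which matched 23328. Per gene the probeset with the highest mean was used. Background was set on each array by 1405 probesets of olfactory and vomeronasal receptors (95th percentile, 5.58 and 5.57), and genes above it on at least 1 array were compared. Folds are 2 to the power of the size of a difference, and members were counted past 1.2-fold (0.26 on the log2 scale). For a gene under background on 1 array the fold is a bound against that level. No p-value was computed. The named genes were the 9 measured members, the 4 members of each other list with the largest absolute difference above background, 15 preset genes where they were measured, and the 2 brightest markers of each cell type. Other measured Gbp genes were added beside Gbp3 and Gbp7. Members and lists were chosen with earlier results of these data known. The counting was checked on simulated differences. Python 3.11.15, numpy 2.4.6, pandas 2.3.3 and statsmodels 0.14.6 were used.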

Additional observations from a re-analysis of the deposited data

How the results depend on the processing

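The median of the class I genes stayed between 0.06 and 0.10 under the 6 alternatives that change values (leaving out the background filter, a 99th percentile background, averaging the probesets of a gene, centring on the median or on a lowess trend, raising low values to the background level) and when each gene was left out in turn. Their counts past 1.2-fold stayed at 0 in both directions under these 6. Only Tapbp changed sign, from 0.09 to -0.06 with the mean of its probesets. At 1.1-fold, 1 class I gene was higher. No paired analysis was possible because each condition has 1 array.

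Counts in the other lists rest on few genes. Above background were 12 other class I genes, 17 proteases, 25 transcription and signalling genes and 7 class II genes. There were 10 interferon-gamma-inducible genes, 10 T cell ligands and 2 NKG2D ligands. Over all genes above background, 17.7% were at least 1.1-fold higher and 18.6% lower. At 1.5-fold these shares were 0.796% and 0.64%, and at 2-fold 0.192% and 0.0427%. At 1.1-fold the higher genes were 3 other class I genes, 3 proteases, 7 transcription and signalling genes, 3 class II genes, 5 interferon-gamma-inducible genes and 3 T cell ligands, and the lower ones 1 other class I gene, 3 transcription and signalling genes, 2 class II genes, 2 T cell ligands and 1 NKG2D ligand. At 1.5-fold, 1 interferon-gamma-inducible gene measured higher (Cxcl10, under background on the non-stimulated array, with a bound of at least 1.49-fold that does not reach it), with 0 in either direction among class II genes and T cell ligands and 0 higher among other class I genes and transcription and signalling genes. At 2-fold all of these counts were 0. Without the background filter the higher and lower counts were 2 and 3 for class II, 4 and 3 for interferon-gamma-inducible, 2 and 2 for other class I genes, and 2 and 1 for T cell ligands. With the background at the 99th percentile, 0 class II genes passed in either direction and 0 T cell ligands, 1 interferon-gamma-inducible and 1 transcription and signalling gene were higher. With the mean of probesets, 0 other class I genes and 1 transcription and signalling gene were higher, and with values raised to background 0 T cell ligands were. Fewer or more genes compared and the chosen fold set these counts by construction. The median of the interferon-gamma-inducible list turned from 0.09 to -0.04 without the background filter and was 0.17 at the 99th percentile, and that of the class II list turned from 0.02 to -0.05 under both. The medians of the other 6 lists kept their sign under the 6 alternatives.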

Other observations

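Among genes above background with an upstream window, 595 held the kappaB consensus and 10359 did not. Their median differences were 0.01 and 0.00, and 8.24% and 5.53% passed 1.2-fold upwards. For the interferon response motif, searched as GAANNGAAA only, the shares were 5.43% of 644 genes with it and 5.69% of 10310 without it. For the Y box they were 5.54% of 4314 and 5.77% of 6640. For the X2 box core the share was lower with the motif, 4.51% of 3152 genes against 6.15% of 7802, and for the gamma-activated site it was 6.69% of 777 against 5.60% of 10177. Only shares upwards were counted, so whether genes with a motif also passed 1.2-fold downwards more often was not tested. These shares are descriptions of the 2 arrays.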
